A study of Rattus norvegicus with 40 samples.

Results

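Interferon-stimulated genes are described here as 9 genes, Mx1, Mx2, Isg15, Ifit2, Ifit3, Irf7, Usp18, Rsad2 and Ifi27l2b, taken by gene symbol from the deposited tables of T cells of salt-sensitive rats. Each stood on 1 gene model in all 15 tables, so the 9 members were found among 31677 gene models, of which 14949 carried a symbol. The study sequenced RNA from circulating and kidney T cells in 40 libraries, 4 for each of 10 groups, with each library made from a pool of 3 rats. All rats were Dahl salt-sensitive (SS), an inbred strain that becomes hypertensive on salt, and were of the rat types SS/CRL and SS/MCW, as background colonies of that strain kept at different sites. The groups, each present in both tissues, were SS/CRL on high-salt chow (HS) for 3 weeks at 10 weeks of age, SS/CRL on low-salt chow (LS) at 10 weeks, SS/MCW on HS for 3 weeks at 10 weeks, SS/MCW on LS at 10 weeks and SS/MCW on LS at 7 weeks. The comparisons asked what salt, rat type, age and tissue did to the T cells.

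Type I interferons are secreted by cells that sense viral or misplaced nucleic acids, and they signal through a receptor, the JAK kinases and a complex of transcription factors that binds the interferon-stimulated response element in the promoters it turns on. The products restrict viruses, while some of them amplify or end the signal. T cells respond to interferon themselves, and interferon-stimulated genes are a common readout of the signal in inflamed tissue.

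The binding letters of that complex are shown because the signal is known to reach genes of this family through them. The element was searched as GAAANNGAAA, or TTTCNNTTTC on the other strand, in RefSeq promoter windows of build GRCr8 that run from 250 bases before to 50 after a gene's start. Windows were found for Mx1, Ifit3, Irf7 and Rsad2. The 250 bases before each start are printed 5′ to 3′ in the direction of the gene, with matches in capitals. They lie at chr11:50294607-50294856 (minus strand) for Mx1, chr1:241527076-241527325 (plus strand) for Ifit3, chr1:205800024-205800273 (minus strand) for Irf7 and chr6:48788121-48788370 (minus strand) for Rsad2.
Mx1: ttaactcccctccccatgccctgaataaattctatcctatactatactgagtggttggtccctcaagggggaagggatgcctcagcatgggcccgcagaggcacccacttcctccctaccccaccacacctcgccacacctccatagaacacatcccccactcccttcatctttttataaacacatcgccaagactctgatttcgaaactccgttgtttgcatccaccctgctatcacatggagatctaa
Ifit3: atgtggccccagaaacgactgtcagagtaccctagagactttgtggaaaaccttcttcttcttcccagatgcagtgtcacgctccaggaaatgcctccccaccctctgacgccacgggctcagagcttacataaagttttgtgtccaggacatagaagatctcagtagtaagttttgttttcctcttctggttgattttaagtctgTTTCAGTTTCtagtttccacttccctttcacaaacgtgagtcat
Irf7: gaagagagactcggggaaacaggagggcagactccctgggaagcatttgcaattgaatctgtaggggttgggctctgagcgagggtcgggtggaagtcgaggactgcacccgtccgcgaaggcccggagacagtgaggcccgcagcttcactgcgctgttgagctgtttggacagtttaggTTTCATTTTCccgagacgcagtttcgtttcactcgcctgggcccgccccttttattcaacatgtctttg
Rsad2: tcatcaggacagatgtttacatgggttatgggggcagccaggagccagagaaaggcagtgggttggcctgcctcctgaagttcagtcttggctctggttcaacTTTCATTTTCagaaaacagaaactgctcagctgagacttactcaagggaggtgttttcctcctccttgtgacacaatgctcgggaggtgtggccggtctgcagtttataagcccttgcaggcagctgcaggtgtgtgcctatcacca
The match began 44 bases before the start of Ifit3, 69 before that of Irf7 and 147 before that of Rsad2, and Mx1 had no match to these letters in its window. The same letters were found in 3.92% of all 33469 windows (1312). In the lists a gene was counted if any of its windows matched, so their shares are per gene and not per window. The letters were found in 22 of 40 other antiviral interferon-stimulated genes with a window and in 14 of 19 interferon gamma and antigen processing genes. They were found in 4 of 10 interferon ligands, 2 of 9 nucleic acid sensors, 2 of 11 pathway inhibitors and 0 of 12 genes for receptors and JAK-STAT signaling. A match is a description of the sequence and says nothing of binding in these cells.

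The deposited files gave 1 FPKM value (mapped fragments scaled to transcript length and library size, a level per length) per group and table. Each group stood in 2 to 4 tables, which scaled it slightly differently, so levels are given as medians over tables and comparisons use the values of their own table. The spread of a group's value over its tables was 9.92% to 16.2% of its level. No values per library were used, so the order of levels below carries no spread among libraries, and neighbours in it can be told apart only where a comparison was tested.

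The cells were checked against T cell markers first. The 12 T cell markers summed to 4350 to 5725 FPKM in the circulating groups. In the kidney groups they summed to 244 FPKM in SS/CRL HS, 314 in SS/CRL LS, 931 in SS/MCW HS, 552 in SS/MCW LS at 10 weeks and 249 in SS/MCW LS at 7 weeks. The kidney groups also held 2093 to 9468 FPKM of proximal tubule markers and 177 to 985 FPKM of macrophage and monocyte markers, against 0.0814 to 0.584 and 45.7 to 62.8 FPKM in the circulating groups. Over the kidney groups the thick limb and distal tubule markers summed to 1491 to 15159 FPKM, the red blood cell markers to 458 to 4594, the endothelial markers to 122 to 224 and the fibroblast and mural markers to 46.8 to 340 FPKM. In such bulk RNA, fewer cells of a type and less RNA per cell cannot be told apart.

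In circulating T cells the most abundant member was Ifi27l2b, a small membrane protein gene of the interferon-inducible ISG12 family. Its level was 1295 FPKM in SS/CRL HS, 1137 in SS/CRL LS, 1492 in SS/MCW HS, 1167 in SS/MCW LS at 10 weeks and 1580 in SS/MCW LS at 7 weeks. The highest of these groups was 1.39 times the lowest. Mx1, a GTPase that blocks viral replication and in rodents acts in the nucleus, was second, at 125, 142, 118, 132 and 117 FPKM in the same order of groups. Its groups lay closer together than those of Ifi27l2b, the highest at 1.22 times the lowest.

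Next came 4 members between 10.1 and 23.2 FPKM. Mx2, the related GTPase that in the rat acts in the cytoplasm, was at 23.2 FPKM in SS/CRL HS, 22.4 in SS/CRL LS, 22.3 in SS/MCW HS, 20.8 in SS/MCW LS at 10 weeks and 19.8 at 7 weeks. Isg15, a ubiquitin-like protein that is attached to other proteins, was at 20.5, 17.2, 21.8, 15.6 and 21.9 FPKM in that order. Isg15 was thus lowest in the LS groups at 10 weeks of both rat types. Irf7, the transcription factor that amplifies type I interferon production, was at 16.3, 14.5, 14.3, 14.0 and 13.3 FPKM. Usp18, the protease that removes Isg15 and quiets the interferon receptor, was at 11.0, 11.9, 10.8, 12.1 and 10.1 FPKM. Both stayed within 1.23 times between the lowest and the highest circulating group.

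The RNA-binding Ifit proteins and Rsad2 were scarce in the circulation. Ifit2 was at 2.85 FPKM in SS/CRL HS, 3.35 in SS/CRL LS, 2.96 in SS/MCW HS, 3.11 in SS/MCW LS at 10 weeks and 2.77 at 7 weeks. Ifit3 was at 1.24, 1.75, 1.06, 1.53 and 1.40 FPKM in that order. Rsad2 (viperin), an enzyme that makes a chain-terminating nucleotide, was lowest of all members, at 0.303, 0.458, 0.326, 0.436 and 0.288 FPKM. Ifit3 and Rsad2 were both higher in the LS than in the HS group of each rat type at 10 weeks. Mx1, Usp18 and Ifit2 had the same order, and none of these differences passed the test.

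**Figure D1:**
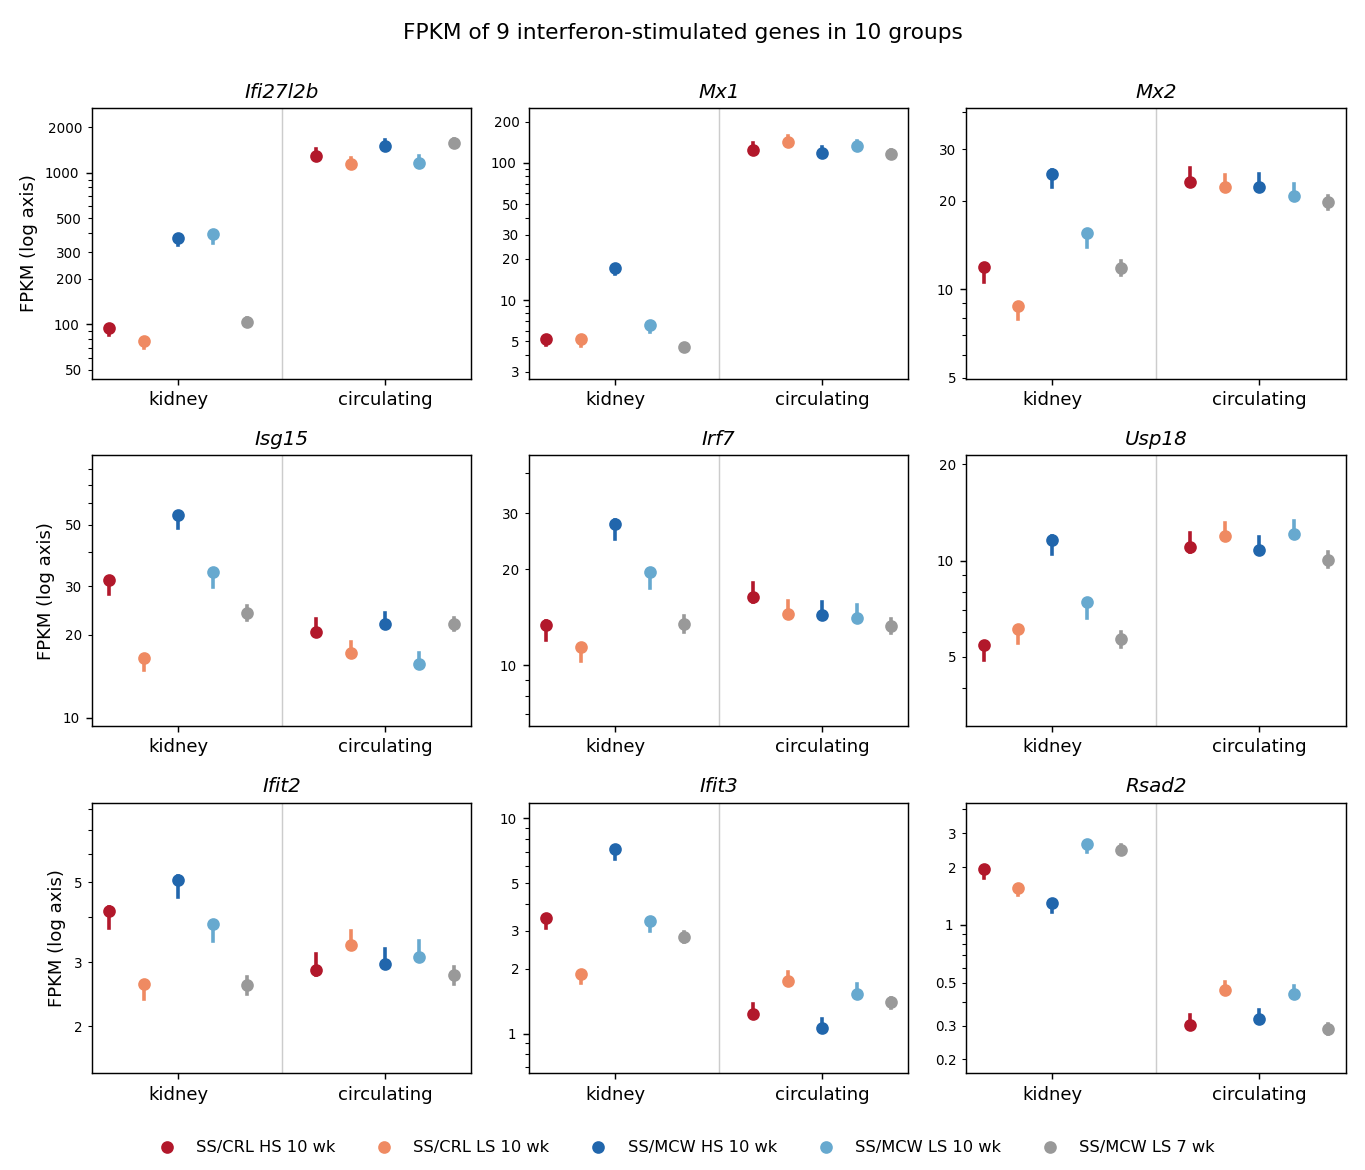
FPKM (log axis) of each member in kidney groups (left of each panel) and circulating groups (right). Points are medians over the tables that hold the group, bars the range over those tables and not a spread among libraries. Mx1 and Ifi27l2b sit far lower in kidney, Rsad2 higher, and SS/MCW HS is the highest kidney group in 7 of the 9 panels.

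In kidney cells the levels varied more between groups. Ifi27l2b was at 93.9 FPKM in SS/CRL HS, 77.4 in SS/CRL LS, 373 in SS/MCW HS, 394 in SS/MCW LS at 10 weeks and 104 in SS/MCW LS at 7 weeks. The groups fell into a high pair, the SS/MCW groups at 10 weeks, and 3 low ones, with the highest at 5.09 times the lowest. Mx1 was at 5.25 FPKM in SS/CRL HS, 5.17 in SS/CRL LS, 17.2 in SS/MCW HS, 6.55 in SS/MCW LS at 10 weeks and 4.54 at 7 weeks. Only SS/MCW HS stood apart for Mx1 among the 5 kidney groups.

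The intermediate members were also highest in kidney cells of SS/MCW HS. Mx2 was at 11.9 FPKM in SS/CRL HS, 8.79 in SS/CRL LS, 24.7 in SS/MCW HS, 15.6 in SS/MCW LS at 10 weeks and 11.8 at 7 weeks. Isg15 was at 31.5, 16.4, 54.2, 33.8 and 24.0 FPKM in the same order. SS/MCW HS had the highest value and SS/CRL LS the lowest for both genes. Irf7 was at 13.4, 11.4, 27.7, 19.6 and 13.5 FPKM. Usp18 was at 5.44, 6.10, 11.6, 7.43 and 5.67 FPKM. For Usp18 the lowest group was SS/CRL HS.

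The Ifit genes had the same highest group and Rsad2 did not. Ifit2 was at 4.17 FPKM in SS/CRL HS, 2.61 in SS/CRL LS, 5.08 in SS/MCW HS, 3.85 in SS/MCW LS at 10 weeks and 2.60 at 7 weeks. Ifit3 was at 3.44, 1.88, 7.17, 3.33 and 2.81 FPKM in that order. For both, the HS group lay above the LS group of the same rat type at 10 weeks. Rsad2 was at 1.95, 1.56, 1.30, 2.65 and 2.47 FPKM, with SS/MCW HS lowest.

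The genes most like the members were ranked by Pearson's r, over the 5 groups of a tissue, with the mean of the members' centred log2(FPKM + 1). In kidney cells the top 5 of 10135 gene models with at least 5 FPKM in 1 group were Psme2, an interferon-inducible proteasome activator subunit, Slpi, Lfng, Snrpd3 and Tmsbl1, with r of 0.997 to 0.999. Psme2 was at 101 FPKM in SS/CRL HS, 90.0 in SS/CRL LS, 142 in SS/MCW HS, 122 in SS/MCW LS at 10 weeks and 98.9 at 7 weeks. Among the members themselves, 8 had r of 0.85 to 0.995 with that mean and Rsad2 had -0.25. In circulating cells the top 5 of 7570 were Usp30, ERGIC2, Wipf3, Nr2c1 and Slfn1, with r of 0.980 to 0.996. The members there had r from -0.53 for Ifi27l2b to 0.70 for Mx2. These are descriptions over 5 group values, which share libraries between genes. The top genes were picked for the highest r among all those ranked, so an r near 1 over 5 values was set by the ranking. In each tissue a member is itself part of the mean it was set against, which raises its r in advance.

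High salt did not move any member past the test in kidney cells. In kidney cells of SS/MCW rats the authors' deposited table called 0 of 9 members at a q under 0.05, where 0.433% of 19385 tested gene models were called. Mx1 had the smallest p there, with 17.2 FPKM on HS and 6.66 FPKM on LS, a log2 fold change of 1.37 with a standard error of 0.81, and in the authors' deposited table p was 0.00105 and q was 0.151. Standard errors are those implied by the deposited test statistic. It was the only member with an unadjusted p under 0.05 in that comparison. The median log2 fold change of the 9 members was 0.62, against -0.06 over all gene models tested. Rsad2 had the lowest, at 1.30 FPKM on HS and 2.71 FPKM on LS.

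In the same comparison the T cell marker Cd4 and the common leukocyte gene Ptprc were called higher, with 21.2 FPKM on HS against 7.44 FPKM on LS for Cd4 and 48.8 against 12.4 FPKM for Ptprc. Other T cell markers differed by less or more: as medians over tables, Cd3e was at 110 FPKM on HS and 41.6 on LS, and Cd8a at 138 and 97.6. The T cell list had a median log2 fold change of 1.13 over 11 tested gene models, and the macrophage and monocyte list one of 0.94 over 10. Of the red blood cell list 2 of 5 were called lower, with a sum of 458 FPKM on HS and 4618 FPKM on LS, and of the fibroblast and mural list 1 of 7, with 74.1 and 341 FPKM. The part of these lists in the members' values was not tested.

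In kidney cells of SS/CRL rats salt also called 0 of 9 members in the authors' deposited table, where 5.51% of 20501 tested gene models were called, and 0 members had an unadjusted p under 0.05. Isg15 had the largest difference, at 31.5 FPKM on HS and 16.7 FPKM on LS, a log2 fold change of 0.91 with a standard error of 1.95. The median over the members was 0.29, against 0.05 over all gene models tested. Here the T cell list had a median of -0.27. The salt effect on Mx1 was 1.37 in SS/MCW and -0.01 in SS/CRL kidney cells, a difference of 1.37 with a standard error of 1.03 that did not pass Benjamini-Hochberg adjustment over all gene models (normal test of the 2 fold changes).

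In circulating cells salt called 0 of 9 members in SS/MCW rats, where 0.107% of 16885 tested gene models were called, and 0 of 9 in SS/CRL rats, where 0.67% of 17169 were called. Ifi27l2b had 1483 FPKM on HS and 1152 FPKM on LS in SS/MCW rats, and its unadjusted p in the authors' deposited table was 0.0435 with a q of 0.759. It was the only member with an unadjusted p under 0.05 there, and in SS/CRL rats 0 members had one. In SS/CRL rats Ifi27l2b was at 1295 FPKM on HS and 1137 FPKM on LS. Log2 fold changes of the members ran from -0.52 to 0.49 in SS/MCW and from -0.60 to 0.25 in SS/CRL circulating cells.

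By the deposited q, rat type called Ifi27l2b on both chows and Mx1 on HS in kidney cells. These calls were lost with normal p-values of the deposited test statistic, which called 5 gene models in all on LS and 22 on HS. On LS, SS/CRL kidney cells had 77.4 FPKM of Ifi27l2b and SS/MCW kidney cells 391 FPKM, so that it fell by 2.34 on the log2 scale with a standard error of 0.84, and q in the authors' deposited table was 0.00524. It was the only 1 of 9 members called, where 1.81% of 18032 tested gene models were called. All 9 members had lower values in SS/CRL, with a median log2 fold change of -0.77, against -0.01 over all gene models tested. Isg15 was at 16.4 FPKM in SS/CRL and 33.4 FPKM in SS/MCW kidney cells, and with a standard error of 4.22 its log2 fold change of -1.03 gave a deposited p of 0.619.

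Markers of other cells differed alongside. On LS the T cell list had 1 of 11 tested gene models called lower in SS/CRL kidney cells, with a median of -0.62 and summed levels of 314 FPKM in SS/CRL and 549 FPKM in SS/MCW. The macrophage and monocyte list had 2 of 10 called lower, with a median of -1.07. The fibroblast and mural list had 2 of 6 called lower, among them Mgp, a matrix calcification inhibitor. The endothelial list had 2 of 8 called lower and the proximal tubule list 1 of 7 called higher, which summed to 9468 FPKM in SS/CRL and 4078 FPKM in SS/MCW. The thick limb and distal tubule list had 0 of 6 called, with 1491 FPKM in SS/CRL and 4686 FPKM in SS/MCW. The part of these cells in the fall of Ifi27l2b was not tested.

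On HS, Mx1 and Ifi27l2b fell in SS/CRL kidney cells, the only 2 of 9 members called where 5.72% of 22692 tested gene models were called. Mx1 was at 5.40 FPKM in SS/CRL and 17.7 FPKM in SS/MCW, a log2 fold change of -1.71 with a standard error of 0.60 and q was 0.00149 in the table the authors deposited. Ifi27l2b was at 96.6 FPKM in SS/CRL and 386 FPKM in SS/MCW, a log2 fold change of -2.00 with a standard error of 0.55, with the same q in the authors' deposited table. These 2 members thus stood at 30.5% and 25.0% of the SS/MCW level.

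Usp18 came next, at 5.57 FPKM in SS/CRL and 12.0 FPKM in SS/MCW kidney cells on HS, where the authors' deposited table gave p as 0.00895 and q as 0.122. Mx2 was at 12.1 and 25.5 FPKM, Ifit3 at 3.53 and 7.39 FPKM and Irf7 at 13.7 and 28.5 FPKM in SS/CRL and SS/MCW. Each of these was at under 50% of the SS/MCW level, and none passed the test. Rsad2 alone had a higher value in SS/CRL, 2.00 FPKM against 1.32 FPKM in SS/MCW. The median log2 fold change was -1.07 over the members and 0.12 over all gene models tested.

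Markers of several cell types differed in the same cells. On HS, 10 of 12 T cell markers were called lower in SS/CRL kidney cells with a median of -2.07, and their sum was 251 FPKM in SS/CRL and 963 FPKM in SS/MCW. Cd3e, part of the antigen receptor of T cells, was at 23.3 FPKM in SS/CRL and 114 FPKM in SS/MCW. The macrophage and monocyte list had 8 of 10 called lower with a median of -2.20, and the natural killer list had 4 of 6 called lower with a median of -2.26. In the plasmacytoid dendritic cell list, a cell type that secretes type I interferon, 2 of 4 tested gene models were called lower, Bst2 and Clec4a3. Bst2 is also counted below among the other antiviral interferon-stimulated genes. As medians over tables it held 72.6 of the list's 82.9 FPKM in SS/CRL and 134 of 167 FPKM in SS/MCW. Siglech was listed at 0 in SS/CRL kidney cells on HS. A gene model of this list was also at 0 in the LS kidney groups of both rat types. Of the kidney's own cells, the proximal tubule list had 1 of 7 called higher, with a sum of 5232 FPKM in SS/CRL and 2536 FPKM in SS/MCW, and the endothelial list 2 of 8, with 229 and 124 FPKM. The thick limb and distal tubule list had 2 of 6 called higher and 1 lower, with 2285 FPKM in SS/CRL and 7291 FPKM in SS/MCW. The part of these cells in the fall of Mx1 and Ifi27l2b was not tested.

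In circulating cells rat type called 0 of 9 members on LS, where 0.541% of 17004 tested gene models were called, and 0 of the 8 members tested on HS, where 0.241% of 16995 were called. Rsad2 was not tested on HS by the authors. No member had an unadjusted p under 0.05 in either table. Ifi27l2b was at 1134 FPKM in SS/CRL and 1183 FPKM in SS/MCW on LS, and at 1257 and 1492 FPKM on HS. Mx1 was at 142 FPKM in SS/CRL and 134 FPKM in SS/MCW on LS, and at 121 and 118 FPKM on HS. The members' log2 fold changes lay between -0.06 and 0.17 on LS and between -0.25 and 0.18 on HS.

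The kidney and circulating effects of rat type on HS were -1.71 and 0.04 for Mx1, a difference of -1.76 with a standard error of 0.69. For Ifi27l2b they were -2.00 and -0.25, a difference of -1.75 with a standard error of 0.66. On LS the effects on Ifi27l2b were -2.34 and -0.06, a difference of -2.28 with a standard error of 0.88. None of these differences between the tissues passed the same normal test after adjustment over all gene models. When the standard errors came from the deposited p, those of Mx1 and Ifi27l2b on HS passed. The normal test was cautious, with an unadjusted p under 0.05 for 306 of 12862 gene models on HS and 41 of 11499 on LS. Of the 12 T cell markers, 10 were called in kidney cells on HS and 0 in circulating cells.

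Age called 1 member, by the deposited q and not by normal p-values of the test statistic, which called 7 gene models in all. Ifi27l2b rose in kidney cells of SS/MCW rats on LS, with 397 FPKM at 10 weeks and 110 FPKM at 7 weeks, a log2 fold change of 1.86 with a standard error of 0.83 for which the authors' deposited table gave q as 0.00983. It was the only 1 of 9 members called, where 1.07% of 18869 tested gene models were called. All 9 members had higher values at 10 weeks, with a median log2 fold change of 0.43, against 0.09 over all gene models tested. In the same comparison 1 of 11 T cell markers was called higher, with a list median of 0.91. The macrophage and monocyte list had 2 of 10 called higher with a median of 1.08, and the fibroblast and mural list 2 of 7 with a median of 1.54. The red blood cell list had 2 of 5 called higher, with a sum of 4621 FPKM at 10 weeks and 696 FPKM at 7 weeks. None of the tubule markers was called, with sums of 4843 FPKM at 10 weeks and 16053 FPKM at 7 weeks for the thick limb and distal tubule and 4199 and 2211 FPKM for the proximal tubule. The part of these lists in the rise of Ifi27l2b was not tested.

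In circulating cells age called 0 of 9 members, where 1.94% of 17103 tested gene models were called. Ifi27l2b was at 1149 FPKM at 10 weeks and 1498 FPKM at 7 weeks, for which the authors' deposited table gave p as 0.0268 and q as 0.291, the only member with an unadjusted p under 0.05. Its age effect was 1.86 in kidney and -0.38 in circulating cells, a difference of 2.24 with a standard error of 0.90 that did not pass the test, though it did with standard errors from the deposited p.

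**Figure D2:**
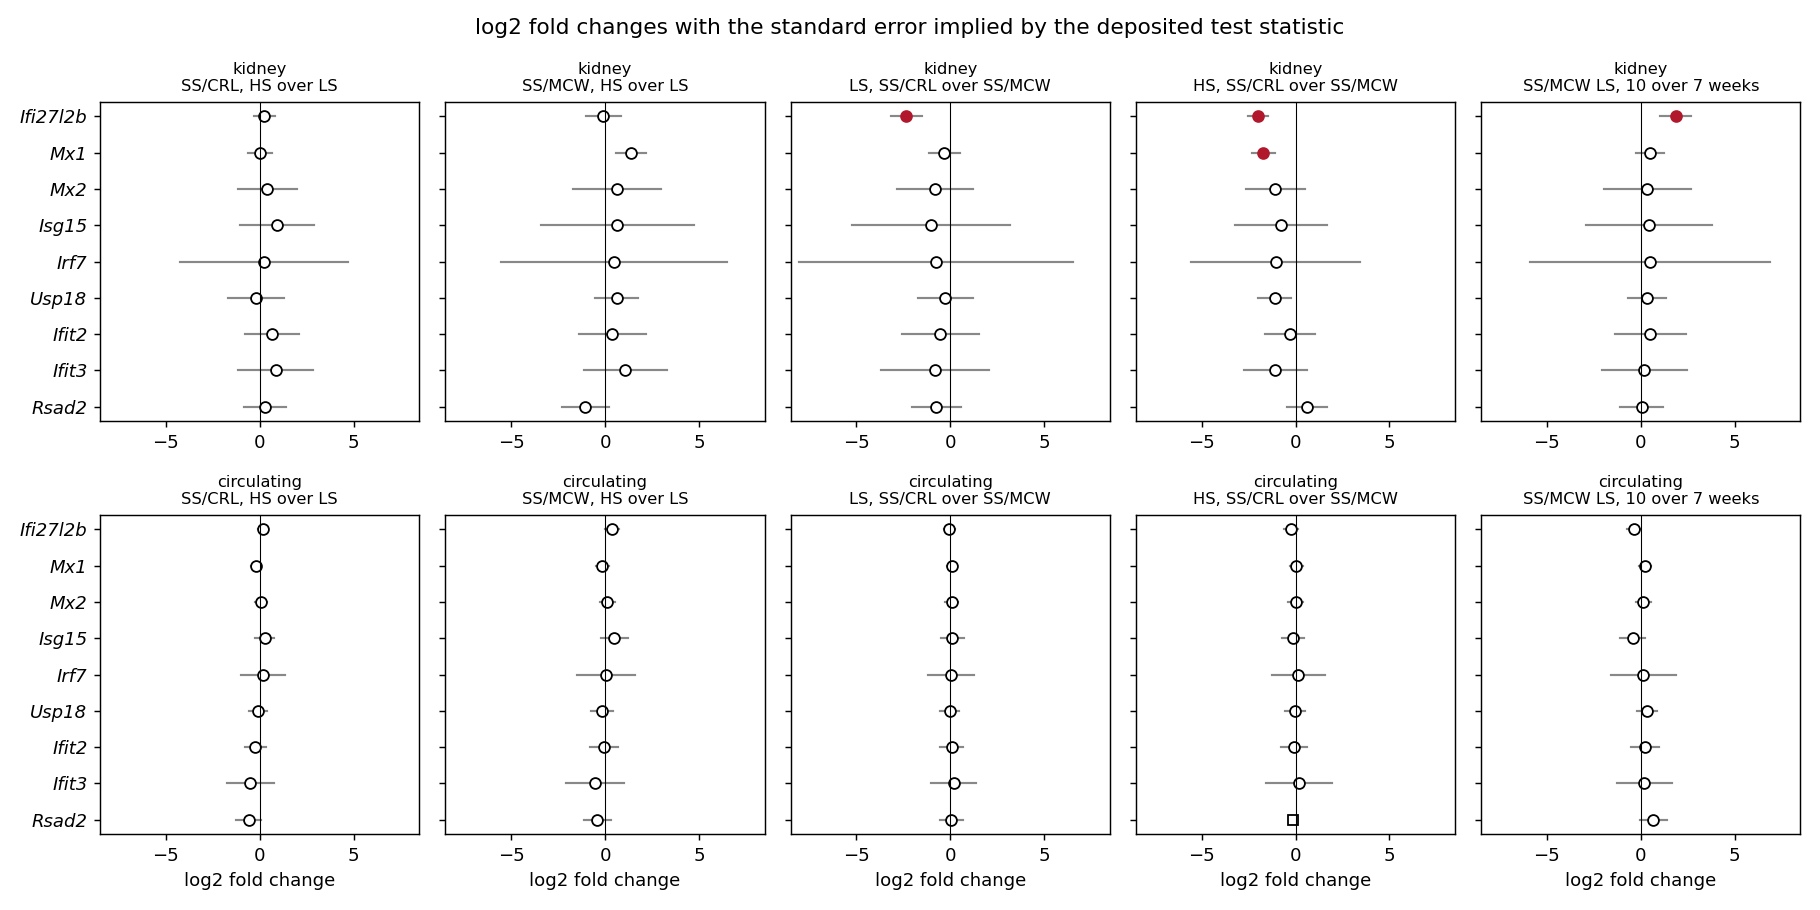
Log2 fold change of each member in the 10 comparisons within a tissue (top, kidney; bottom, circulating), with bars of 1 standard error implied by the deposited test statistic. Filled points had q under 0.05 in the authors' deposited table, namely Ifi27l2b in 3 kidney comparisons and Mx1 in 1, and the square is the value of Rsad2 that was not tested.

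The kidney comparisons share groups: SS/MCW LS at 10 weeks enters those of salt, rat type on LS and age. The low Ifi27l2b values of SS/CRL LS and of the rats at 7 weeks were therefore both read against the same SS/MCW group. For Ifi27l2b in kidney, SS/MCW HS and SS/MCW LS at 10 weeks were 373 and 397 FPKM in 1 table, a log2 fold change of -0.09. Cd3e was at 110 and 42.1 FPKM there. As medians over tables, Cd8a was at 138 and 97.6 FPKM in these groups, and the 12 T cell markers summed to 931 and 552 FPKM. The part of T cell content in the Ifi27l2b values was not tested.

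**Figure D3:**
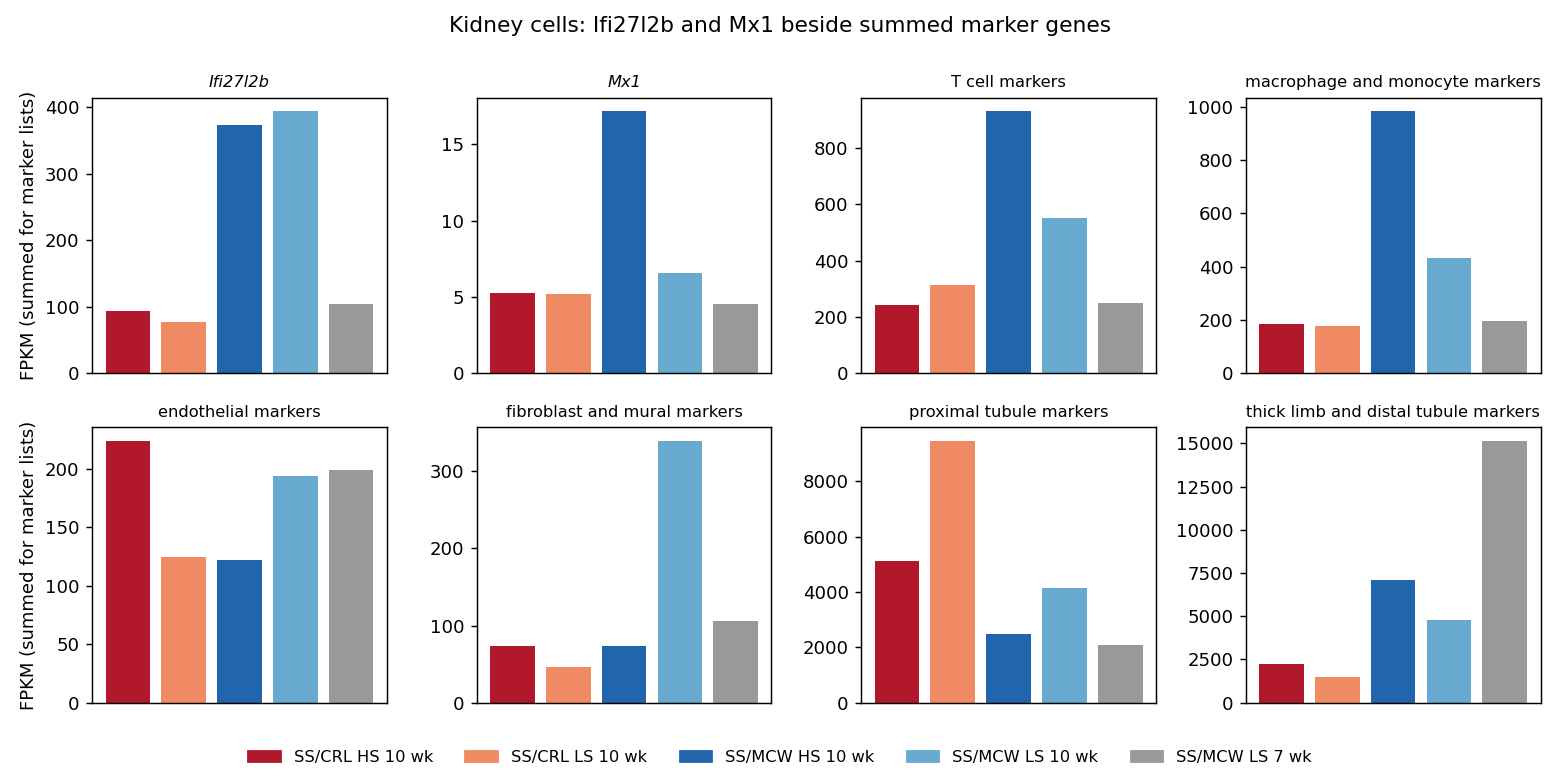
FPKM of Ifi27l2b and Mx1 and summed FPKM of 6 marker lists in the 5 kidney groups, each axis from 0, as medians over tables. Mx1, T cell and macrophage bars are tallest in SS/MCW HS, at 17.2, 931 and 985 FPKM, while Ifi27l2b is at 373 and 394 FPKM in the SS/MCW groups at 10 weeks.

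Between the tissues Mx1 and Ifi27l2b were far lower in kidney cells in all 5 groups of rats, and the other members were not. The kidney level of Mx1 was 2.99% to 11.9% of the circulating level and that of Ifi27l2b 5.62% to 26.7%. For comparison, Cd3e was at 2.49% to 11.5%, Cd4 at 3.18% to 16.4%, Cd8a at 7.77% to 25.6% and Ptprc, the common leukocyte phosphatase CD45, at 1.12% to 6.59%. All 12 T cell markers were called lower in kidney in each of the 5 tables.

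The other members kept more of their level. Usp18 was at 39.9% to 88.1% of the circulating level, Mx2 at 32.4% to 90.6% and Irf7 at 64.8% to 157%. Ifit2 was at 64.6% to 139%, Isg15 at 79.3% to 204% and Ifit3 at 89.4% to 553%. Rsad2 was at 283% to 766%, the only member above the circulating level in all 5 groups of rats. That circulating level was low, at 0.304 to 0.504 FPKM. Whether these transcripts came from T cells or from other cells of the kidney samples was not tested.

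**Figure D4:**
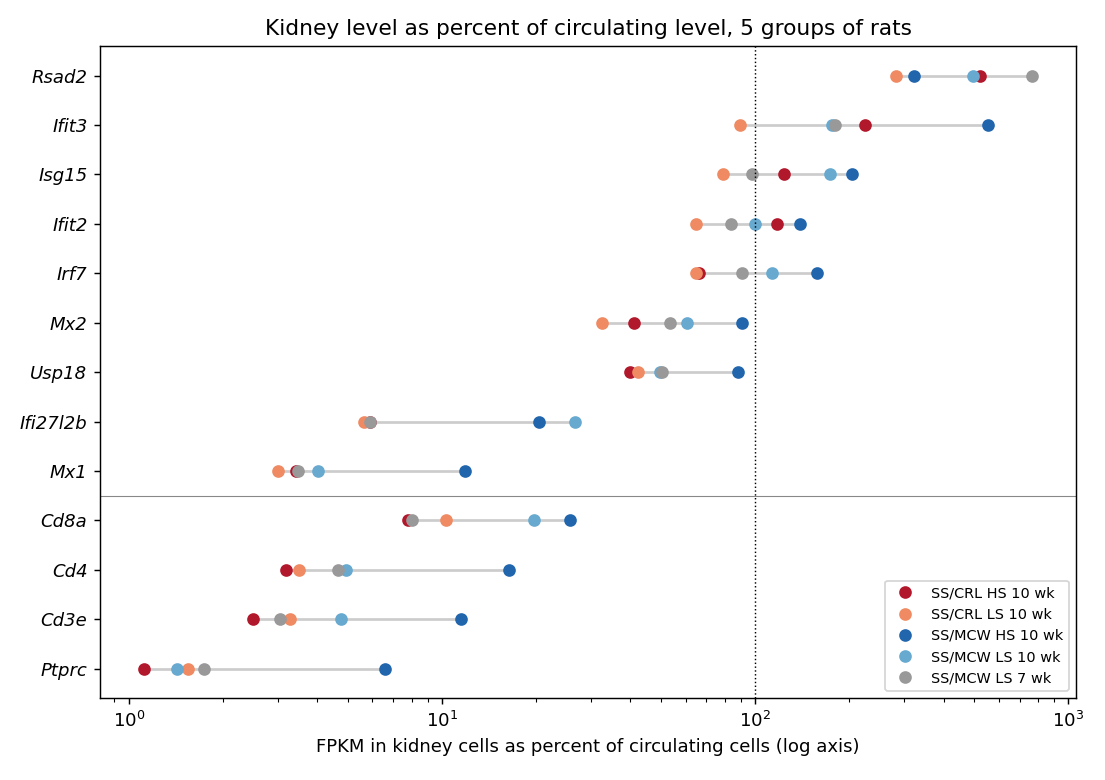
FPKM in kidney cells as percent of that in the matching circulating group (log axis), 1 point per group of rats, with the 9 members above the line and 4 leukocyte genes below it. Mx1 and Ifi27l2b lie with the leukocyte genes at 2.99% to 26.7%, and the other members lie between 32.4% and 766%.

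In SS/CRL HS rats 1 member was called higher and 3 lower in kidney, where 50.9% of 24977 tested gene models were called. Mx1 had a log2 fold change of -4.87 with a standard error of 0.43, and Usp18 had 4.88 FPKM in kidney and 12.2 FPKM in circulating cells, a log2 fold change of -1.32 with a standard error of 0.67. In SS/CRL LS rats 4 members were called lower, Mx1, Mx2, Usp18 and Ifi27l2b, and 0 higher, where 53.5% of 22643 were called. Mx2 was at 7.95 FPKM in kidney and 24.6 FPKM in circulating cells, and the authors' deposited table gave q as 0.0138. This was the only group of rats in which Mx2 was called and Rsad2 was not, the q of Rsad2 being 0.0584.

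In SS/MCW HS rats Rsad2 was called higher and Mx1 and Ifi27l2b lower, where 49% of 23439 tested gene models were called. Mx1 was at 15.4 FPKM in kidney and 130 FPKM in circulating cells, a log2 fold change of -3.08 with a standard error of 0.53. Ifit3 was at 6.45 FPKM in kidney and 1.17 FPKM in circulating cells, and with a standard error of 1.87 its log2 fold change of 2.47 had q at 0.271 in the authors' deposited table. In SS/MCW LS rats at 10 weeks the same 3 members were called, where 43.6% of 21682 were called. At 7 weeks Usp18 was called lower as well, where 56.7% of 23120 were called, and Rsad2 was at 2.33 FPKM in kidney and 0.304 FPKM in circulating cells, a log2 fold change of 2.94 with a standard error of 0.94. The shares of members called, 3 or 4 of 9, were no higher than these shares of all gene models.

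The gene models of the members carried unequal error. In build rn5, as the files give it, Mx1 lies at chr11:41398734-41424279, Rsad2 at chr6:54376867-54388860 and Ifi27l2b at chr6:136556832-136558324, with no other gene model in the locus, and Usp18 at chr4:220895450-220923882 with 1 unnamed. Mx2 (chr11:41545455-41613792) shared its locus with Tmprss2 and 1 unnamed gene model, Isg15 (chr5:177063792-177109752) with Agrn and 1 unnamed, and Ifit2 and Ifit3 shared chr1:260038177-260180902 with each other, with Ifit1 and with a gene model that joins Ifit1lb and Lipa. Irf7 lay in chr1:220908602-221347627 with 16 other gene models. In kidney rat type on HS the standard errors were 0.55 for Ifi27l2b, 0.60 for Mx1, 0.88 for Usp18 and 1.08 for Rsad2. They were 1.34 for Ifit2, 1.57 for Mx2, 1.70 for Ifit3, 2.45 for Isg15 and 4.49 for Irf7. A log2 fold change near -1 could thus not be detected for Irf7 or Isg15 in kidney cells with these values. The part of a shared locus in these errors was not tested.

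Other genes of the pathway were counted from 6 lists of 127 symbols, of which 111 were matched. Of the interferon ligands only Ifng, the type II interferon made by activated T and natural killer cells, was matched. In kidney cells its level was 3.01 FPKM in SS/CRL HS, 0.567 in SS/CRL LS, 9.17 in SS/MCW HS, 0.459 in SS/MCW LS at 10 weeks and 1.22 at 7 weeks. In circulating cells it was between 0.504 and 1.05 FPKM. It was called higher in kidney than in circulating cells of SS/MCW HS rats, 8.22 against 1.16 FPKM, and the authors' deposited table gave q as 0.000669.

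Within the tissues, the contrast of rat types on HS in kidney cells held most of the calls in these lists. It also called 5.72% of all 22692 tested gene models, the highest share of the 10 comparisons within a tissue. Of the other antiviral interferon-stimulated genes, 11 of 42 tested were called lower in SS/CRL and 0 higher, with a median log2 fold change of -0.56. Ifitm1, a membrane protein that blocks viral entry, was at 25.8 FPKM in SS/CRL and 186 FPKM in SS/MCW. Ifi47, an immunity-related GTPase, was at 4.76 and 31.9 FPKM, and Epsti1 at 3.11 and 12.3 FPKM. Cd69, also a marker of recently activated lymphocytes, was at 10.2 FPKM in SS/CRL and 47.2 FPKM in SS/MCW.

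Of the interferon gamma and antigen processing genes, 4 of 18 tested were called lower in SS/CRL kidney cells on HS and 0 higher, with a median of -0.89. Psmb8, a subunit of the immunoproteasome, was at 37.2 FPKM in SS/CRL and 114 FPKM in SS/MCW. The others were Psmb9 and Psmb10, of the same particle, and the gene model of the peptide transporter Tap1,Tap2. Of receptors and JAK-STAT signaling 1 of 16 was called lower, Ifngr1, a chain of the interferon gamma receptor, at 20.6 FPKM in SS/CRL and 79.1 FPKM in SS/MCW. Of the nucleic acid sensors 2 of 13 were called lower, Zbp1 and Tmem173 (STING), and of the pathway inhibitors 1 of 12, Samhd1. For the receptor and inhibitor lists these shares are near the 5.72% of all tested gene models. As with the members, T cell and macrophage markers were lower in the same cells.

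On LS, 2 of 40 other antiviral genes tested were called lower in SS/CRL kidney cells, where 1.81% of all tested gene models were called. They were Ifitm3, at 36.1 FPKM in SS/CRL and 111 FPKM in SS/MCW, and Ifitm1, at 25.1 and 74.6 FPKM. The list median was -0.51. Ifitm3 was at or under 0.0267 FPKM in all circulating groups, as medians over tables. In SS/MCW kidney cells salt called 0 genes of any of the 6 lists and 0.433% of all tested gene models. In SS/CRL kidney cells salt called 5.51% of all tested gene models. Of the lists, Ly6e (195 FPKM on HS and 106 FPKM on LS) and Socs3, a suppressor of cytokine signaling (133 and 81.8 FPKM), were called higher there. Irf3, the factor that starts interferon production (229 and 429 FPKM), and Ikbke, a kinase that activates it (39.6 and 68.9 FPKM), were called lower. The log2 fold changes, with standard errors, were 0.88 (0.42) for Ly6e, 0.70 (0.41) for Socs3, -0.91 (0.45) for Irf3 and -0.80 (0.52) for Ikbke. With age, which called 1.07% of all tested gene models, Psmb10 rose in kidney cells, 106 FPKM at 10 weeks against 42.8 FPKM at 7 weeks.

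In circulating cells the lists held few calls, where 0.107% to 1.94% of all tested gene models were called over the 5 comparisons. Socs1, a suppressor of JAK signaling, was lower in SS/CRL than in SS/MCW on LS, 7.64 FPKM against 13.7 FPKM, and the authors' deposited table gave q as 0.0239. Irf2bp1, a corepressor of Irf2, rose on HS in SS/CRL, with 10.0 FPKM on HS and 6.58 FPKM on LS. Psmb10 fell with age, with 132 FPKM at 10 weeks and 200 FPKM at 7 weeks. IFNAR1, a chain of the type I receptor, was between 45.6 and 50.7 FPKM in the 5 circulating groups.

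Between the tissues, receptors and JAK-STAT genes were called lower in kidney in 8 to 13 of 16 cases and higher in 0 or 1 over the 5 groups of rats. Jak1, a kinase at the receptor, was at 25.3 FPKM in kidney and 228 FPKM in circulating cells of SS/CRL HS rats. Other antiviral genes were called lower in 18 to 32 of 41 to 43 tested and higher in 2 to 6. Over all tested gene models, 43.6% to 56.7% were called in these comparisons, and 57.9% to 62.5% of those calls were higher in kidney. Cxcl10, an interferon-induced chemokine, was called higher in kidney in all 5, at 20.9 FPKM in kidney and 1.05 FPKM in circulating cells of SS/MCW HS rats. The sensor Tlr3 was higher as well, at 10.6 FPKM in kidney and 0.515 FPKM in circulating cells of those rats. Kidney over circulating fold changes were centred at -0.15 to -0.23 over gene models with at least 5 FPKM in both tissues, a shift smaller than these differences.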

How the data were processed

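The RNA was extracted with TRIzol and made into TruSeq libraries, per the labels' protocols. Per the submitters' processing notes, cutadapt and Trim Galore 0.2.5, TopHat and TopHat2 2.1.1 on build rn5, Cufflinks 2.2.1 and Cuffdiff were used. The authors deposited 15 Cuffdiff tables with 1 FPKM value per group, and no value per library was used here, so the depth is unknown and no standard deviation or interval over libraries is given. Per the file headers, the tables also hold a test statistic (a score), a p-value and a q-value for every gene model, all deposited by the authors. FPKM is scaled within each table and depends on the other transcripts of a sample, and the smallest deposited p was 5e-05.

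A gene model was called at a deposited q under 0.05 with status OK. The log2 ratio of the 2 deposited FPKM values, with no pseudocount, gave the fold change, and its direction is HS over LS for salt, SS/CRL over SS/MCW for rat type, 10 over 7 weeks for age and kidney over circulating for tissue. Standard errors are the log2 fold change over the test statistic. For 7 differences between comparisons that share no group, a normal p was adjusted over all gene models by Benjamini-Hochberg, after the test was checked on simulated data with normal errors. In the deposited data the standard deviation of its z over gene models was 0.61 to 4.94 over the 7 differences, where the normal test takes 1, so its adjusted p is approximate. In each of the 7 the share of gene models with an unadjusted p under 0.05 was itself under 0.05. For age it was 67 of 12218 and for rat type on HS 306 of 12862. The test was thus cautious, and a difference that did not pass it is not shown to be absent. List medians take tested gene models that reach 1 FPKM in 1 of the groups and are above 0 in the other. Named genes were the 9 members, Cd3e, Cd4, Cd8a and Ptprc, up to 4 called genes with at least 5 FPKM per pathway list and comparison, and the 5 gene models most like the members in each tissue. A few others, chosen after their values were seen, are IFNAR1, marker genes beside a member and further called genes of a list. The members and lists were chosen with earlier results of these data known. Of 127 pathway and 85 marker symbols, 111 and 78 were matched. The pools carry the same numbers in the 2 tissues, but nothing says whether they held the same rats. The normal test of kidney minus circulating effects took the 2 as independent, which would not hold if they did. The p-values measure only the spread that Cuffdiff estimated over pools. Alternatives tried were the stricter q of 0.01, dropping gene models under 1 FPKM before adjusting p, normal p-values from the test statistic (as is or recentred on the median), a pseudocount of 1, and for differences a minimum of 5 FPKM and standard errors from the deposited p. Tools were numpy 2.4.6, pandas 2.3.3, matplotlib 3.10.9 and scipy 1.17.1 in Python 3.11.15.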

Additional observations from a re-analysis of the deposited data

How the results depend on the processing

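The calls rested on the deposited p. With normal p-values from the test statistic, recentred or not, the members called in kidney cells were 0 in place of 1 for rat type on LS, 0 in place of 2 for rat type on HS and 0 in place of 1 for age, while calls over all gene models in those 3 comparisons became 5, 22 and 7. For kidney over circulating cells these p gave 2 members in place of 4 in SS/CRL HS, 2 in place of 4 in SS/CRL LS and 1 in place of 3 in SS/MCW LS rats at 10 weeks, and a q under 0.01 gave 2 in SS/CRL LS. Mx1 remained called in all 5 comparisons between the tissues. With normal p-values, Rsad2 remained called only in SS/MCW LS rats at 7 weeks. With standard errors from the deposited p, 2 members had a rat type effect on HS that differed between kidney and circulating cells, Mx1 (difference -1.76) and Ifi27l2b (-1.75), and 1 an age effect, Ifi27l2b (2.24), in place of 0 and 0. The cause was not tested. In the other 59 alternative counts the number of members stayed within 1.5 times that reported, and no median log2 fold change of the members changed sign. No paired analysis was possible because the files hold 1 value per group, and for the same reason no library could be left out in turn.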

Other observations

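Ifit1, the RNA cap sensor next to Ifit2 and Ifit3, was at or under 0.0689 FPKM in all 10 groups.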
